A study of Homo sapiens with 16 samples.

Results

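Distal p53 binding sites that were found in every p53 library of a breast epithelial transformation model are described here. They were chosen by their peaks: overlapping p53 peaks of 4 libraries were merged into sites when they shared at least 1 bp, and a site was kept when all 4 libraries had a peak in it and it touched no promoter, taken as 1000 bp upstream to 500 bp downstream of any start of a protein-coding gene. Of 2980 p53 sites, 332 had a peak in all 4 libraries, and 288 of these were distal; they are called core distal sites below. The remaining 44 sites of all 4 libraries lay at promoters.

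MCF10A is an immortalized, nontransformed human mammary epithelial line. It was compared with MCF10A cells carrying an oncogenic HRas gene with a valine in place of glycine at codon 12, introduced with lentiviral particles and hygromycin selection and named G12V below; the parental cells carry no such gene. The p53 libraries of both cell types come from cells that received nutlin, a compound that stabilizes p53, so binding without nutlin was not measured here. Each cell type has 2 p53 ChIP-seq libraries (antibody DO-1) and 2 CTCF ChIP-seq libraries (the labels name no nutlin for these), with an input beside each. Nothing in the labels says that replicates came from separate transductions, so p-values for enrichment between cell types measure only the spread between these libraries. For shares of sites, p-values take each site as a unit and hold no error between libraries. Sites of similar sequence were counted there as separate units.

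p53 is a transcription factor that is activated by DNA damage and oncogenic stress and turns on genes of cell cycle arrest, apoptosis, DNA repair and metabolism. It binds DNA as a tetramer, through a pair of decamers that each read 3 purines, C, 2 bases that are A or T, G and 3 pyrimidines. Many of its binding sites lie far from promoters, in enhancers or in copies of transposable elements, and a part of them is bound in almost every cell type in which p53 is active. CTCF is a DNA-binding protein of chromatin loop boundaries, and AP-1 is a dimer of FOS and JUN proteins that acts downstream of RAS signalling.

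The DNA under the strongest core distal sites shows the pair of decamers directly. The sequences below are from 7 of the 10 sites with the smallest sum of ranks over the 4 libraries, and are named by the nearest start of a protein-coding gene. They are read 5′ to 3′ from the plus strand of hg19 (GRCh37), with the pair of decamers in capitals and 5 bases either side.
IER5: gagggAGGCATGCCCGGGCATGTCTgctgg
PLXDC1: tgtccAGACATGCCTGAACATGCCCaggca
ENSG00000284188: acgggTGACTTGCCCAGACATGCCCgcaat
PAPPA: ttgtcAGACAAGTTCAGGCATGCACagaca
MTHFD1L: agctgGGACATGCCTGGGCATGTCCagcac
IRF2BP2: actgaAAACATGTCAGGACATGCCTttttg
H6PD: gctcgGAACAAGCCCAGGCAAGCCCaggca

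These stretches lie at chr1:181104273-181104302 (IER5), chr17:37203114-37203143 (PLXDC1), chr1:244898912-244898941 (ENSG00000284188), chr9:118706565-118706594 (PAPPA), chr6:151178478-151178507 (MTHFD1L), chr1:234754322-234754351 (IRF2BP2) and chr1:9242198-9242227 (H6PD). The IER5, PLXDC1, MTHFD1L and H6PD motifs had 0 mismatches to the pattern, and those of ENSG00000284188, PAPPA and IRF2BP2 had 1. In all 7 sequences the C and G at the core of both decamers are intact, which the search required.

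Sites without such an adjacent pair are shown for contrast, since the best-ranked of them carry the same decamers 1 base apart. In the next lines both decamers are in capitals and the base between them is in lower case. The stretches are at chr18:37796126-37796154, chr7:123886639-123886667 and chr12:88953583-88953611, plus strand of hg19, and the pairs have 1, 0 and 1 mismatches.
PIK3C3: ctgtGGACATGTCTcAGGCAAGCATccct
TMEM229A: ccctGAACATGTCTgGGACATGTTCtggg
KITLG: cagtTGGCATGCCTgGGACAAGTTCctct

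Enrichment is given as the fold enrichment that the authors' peak caller reported at the summit of the strongest peak of each library in a site, which is the pileup of reads over the local background. Over the 288 sites its median was 18.7 in MCF10A replicate 1 (range 5.13 to 58.3), 11.5 in MCF10A replicate 2 (3.67 to 33.7), 9.31 in G12V replicate 1 (4.25 to 39.5) and 23.9 in G12V replicate 2 (5.94 to 74.5). The level therefore differed more between replicates of 1 cell type than between the cell types, and G12V replicate 2 was highest and G12V replicate 1 lowest. Depth moved with this order: the reads solved from the fold and p-value of the peaks came to 21.4 and 20.1 M for MCF10A, 9.26 M for G12V replicate 1 and 33.2 M for G12V replicate 2, where M is 1e6 reads, and a median core distal site had 51.5, 26, 23 and 114 reads at its summit in these libraries. Overlap of the groups is therefore given for the folds as deposited and, for the sites named by rank or as p53 targets, also for log2 folds that were quantile normalized over the 332 sites of all 4 lists, which gives each library the same distribution.

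**Figure D1:**
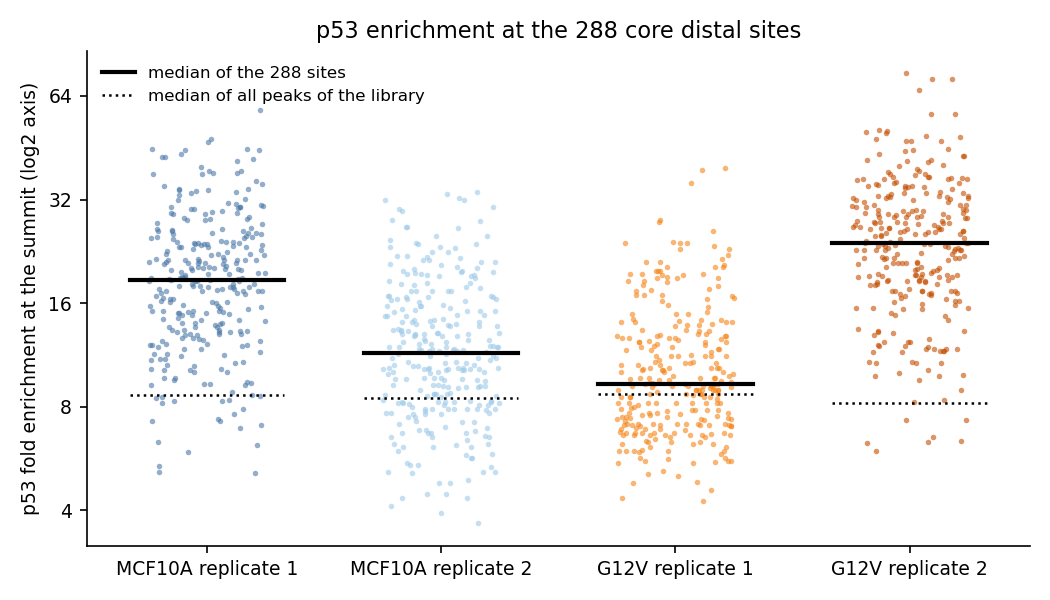
p53 fold enrichment (log2 axis) of each of the 288 core distal sites in the 4 libraries, 1 point per site. The solid bars are the medians of these sites, 18.7, 11.5, 9.31 and 23.9, and the dotted bars the medians of all peaks of each library, which lie between 8.18 and 8.72.

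Since presence in every list chose the sites, their strength is described without a test. They made up 16.8% and 32.5% of the peaks of the MCF10A libraries and 60.4% and 11% of those of the G12V libraries, whose lists held 1718, 885, 477 and 2619 peaks. Among the 100 strongest peaks of each list, 82, 81, 71 and 73 were core distal sites. The short list of G12V replicate 1 set much of the boundary. It was the library with the smallest −log10 q for 172 of the 288 sites, against 114 for MCF10A replicate 2, 2 for MCF10A replicate 1 and 0 for G12V replicate 2. Another 484 distal sites had a peak in exactly 3 lists, and G12V replicate 1 was the missing one in 394 of them.

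The 5 sites just inside the rule, near DERA, PCCA, SCHIP1, WDR19 and S1PR1, had a smallest −log10 q of 1.53 to 2.90 and a fold of 4.12 to 4.46 in MCF10A replicate 2 or 4.25 in G12V replicate 1. Sites outside it such as those near GPC3, IGBP1, SRC and CCN6, lacked only a peak in G12V replicate 1 and had folds of 13 to 34.6 in the other 3 libraries.

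Site IER5, at chr1:181103837-181104849 and 46447 bp downstream of the start of IER5, an immediate early gene, had the smallest rank sum of all. Its fold was 47.0 and 19.7 for MCF10A against 39.1 and 74.5 for G12V, with 154, 94, 121 and 323 reads at the summit. It was the strongest or second strongest peak in 3 lists and the fourth in MCF10A replicate 2. The groups overlap as deposited, while after normalization 5.47 and 4.66 in MCF10A lay below 5.54 and 5.54 in G12V (limma adjusted p = 0.533). PLXDC1, a plexin domain protein of tumour endothelium, has a site 23592 bp downstream of its start with folds of 58.3 and 32 in MCF10A against 24.1 and 71.7 in G12V.

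The site of ENSG00000284188, 4587 bp upstream of a start, gave 42.5 and 29.6 in MCF10A against 17.6 and 33.3 in G12V. PAPPA encodes a protease of insulin-like growth factor binding proteins, and its site, 209498 bp from the start, gave 44.6 and 32 against 27.5 and 48.5. For MTHFD1L, a mitochondrial enzyme of folate metabolism, the values were 44.6 and 24.4 against 23 and 71.5. All of these are intergenic with respect to protein-coding genes, and in each the folds as deposited overlap between the cell types. After normalization G12V lay below MCF10A at ENSG00000284188 (5.19 and 5.24 against 4.62 and 4.37, limma adjusted p = 0.282) and at PAPPA (5.33 and 5.44 against 5.24 and 5.03, adjusted p = 0.767), and PLXDC1 and MTHFD1L still overlapped.

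The site listed by H6PD lies within MIR34AHG, the host gene of the microRNA miR-34a, a well known p53 target that restrains the cell cycle. Its folds were 33.9 and 30.4 in MCF10A against 20.6 and 47.5 in G12V. The site of IRF2BP2, a corepressor of interferon regulatory factor 2, gave 32.2 and 26.4 against 17.9 and 30.5. At both sites the groups overlap as deposited. Normalized values overlap at H6PD, and at IRF2BP2 they were 4.76 and 5.07 in MCF10A above 4.63 and 4.23 in G12V (limma adjusted p = 0.509).

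GML, which encodes a GPI-anchored protein, and RRM2B, the p53-inducible subunit of ribonucleotide reductase, were also among the 10 sites with the smallest rank sum. Folds at the GML site were 24 and 21.0 in MCF10A against 27.9 and 50.6 in G12V. The RRM2B site, in an intron 1927 bp from a start, gave 44.9 and 19.2 against 16.8 and 32.5. In GML both G12V values lay above both MCF10A values before and after normalization (limma adjusted p = 0.315). In RRM2B the groups overlap as deposited, and after normalization both G12V values (4.55 and 4.32) lay below both MCF10A values (5.44 and 4.60, adjusted p = 0.409).

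**Figure D2:**
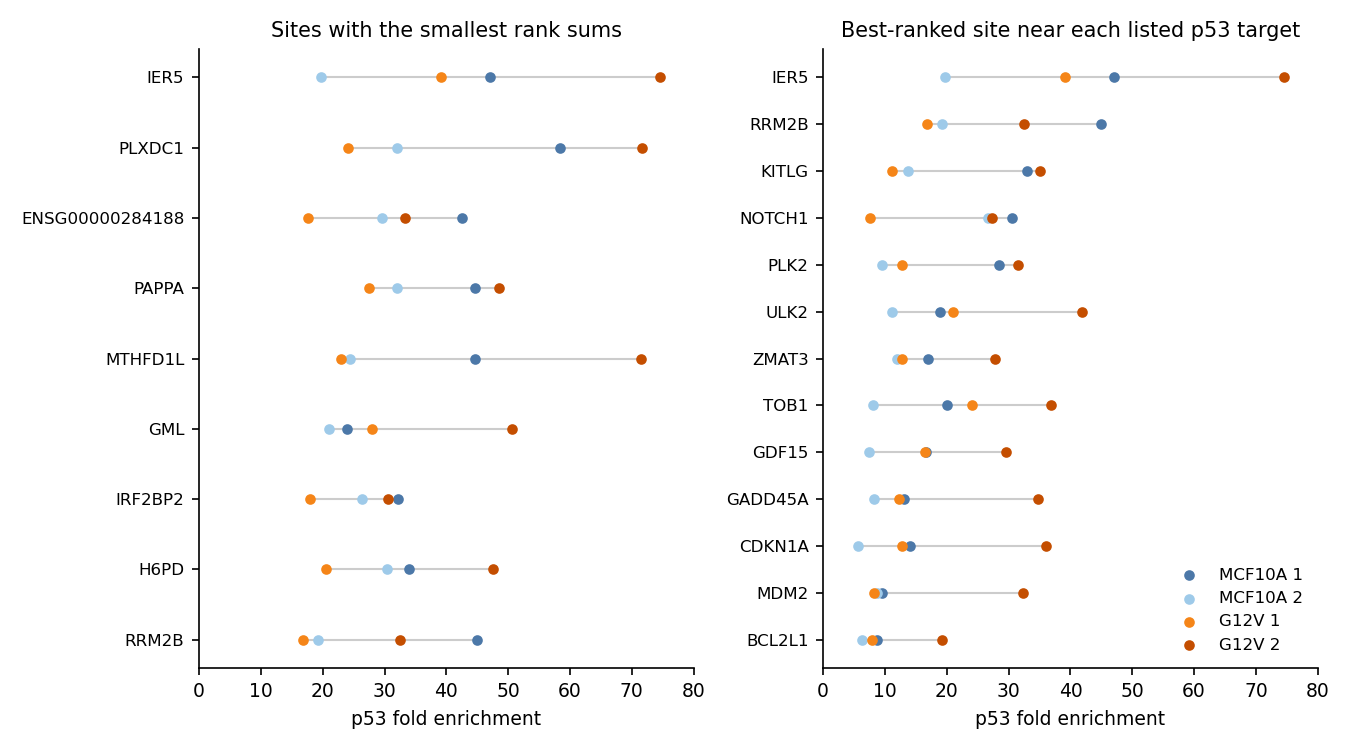
p53 fold enrichment in the 4 libraries (1 point per library) of 9 of the 10 sites with the smallest rank sum and of the best-ranked core distal site near each of 13 listed p53 target genes. G12V replicate 2 is the highest point at IER5 (74.5) and PLXDC1 (71.7), and MCF10A replicate 1 at RRM2B (44.9).

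Sequence was not used by the rule, so it was compared with other sites. A p53 motif was counted where a 150 bp window around the summit of the strongest peak held an adjacent pair of decamers with at most 3 mismatches outside the core C and G. Such a motif was present in 264 of 288 core distal sites (91.7%, exact 95% interval 87.9 to 94.6%). It was present in 81.5% of 1035 partly shared distal sites, which have a peak in at least 1 library of each cell type but not in all 4 (Fisher's exact test, two-sided, adjusted over 11 tests, p = 0.000104). The share was 61.0% of 1373 distal sites of 1 cell type (adjusted p = 8.05e-27, same test) and 70.5% of the 44 promoter sites of all 4 lists (adjusted p = 0.000870). In windows 2000 bp beside the core distal summits 0.347% had a motif.

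The size of these differences depends on how deep the lists reach. When every list was cut to the 477 strongest peaks, the shares were 91.4% and 88.9% (adjusted p = 0.795), and that against promoter sites was 91.4% and 81.0% (adjusted p = 0.478), with 174 core distal sites left. Against distal sites of 1 cell type it was 91.4% and 80.2% (adjusted p = 0.00738, Fisher's exact test), a difference of 11.1 percentage points where the full lists gave 30.7. Peak strength differs between the classes, and its part in the difference was not tested further.

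The match of the motifs to the pattern was also counted. Among the 288 sites, 78 had a motif with 0 mismatches (27.1%), 104 with 1, 50 with 2 and 32 with 3. A motif without mismatch was found in 10.9% of partly shared distal sites, 4.81% of distal sites of 1 cell type and 11.4% of the promoter sites of all 4 lists; these shares were not tested. The core of the decamers read CATG in 65.7% of 528 decamers, CAAG in 13.6% and CTTG in 13.1%.

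**Figure D3:**
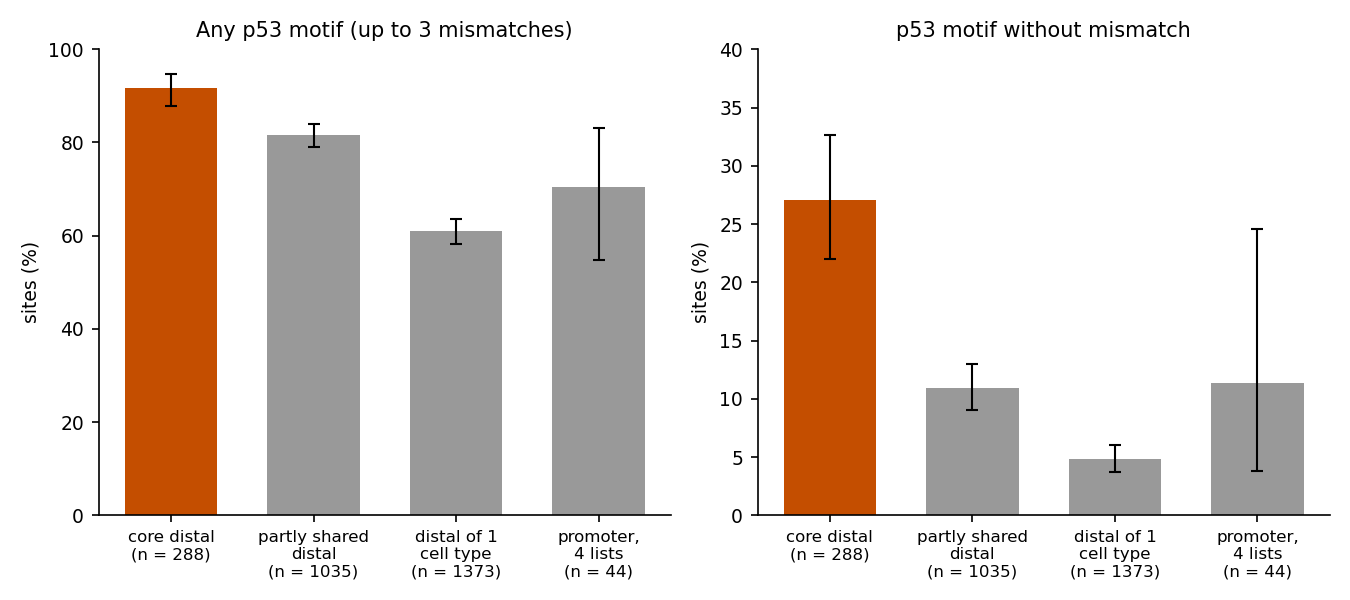
Percent of sites with any p53 motif (left) and with a motif without mismatch (right) in core distal sites and in 3 other classes of p53 sites, with exact 95% binomial intervals that cover counting error only. Core distal sites stand at 91.7% and 27.1%, and distal sites of 1 cell type at 61.0% and 4.81%.

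Fold enrichment was related only weakly to the match. In MCF10A replicate 1 the median fold was 20.4 at sites with 0 mismatches, 19.7 with 1, 16.2 with 2, 16.7 with 3 and 14.6 without a motif. In G12V replicate 2 the same medians were 26.5, 23.6, 20.9, 25.5 and 25.4, so the medians without a motif and with a perfect one lay closer together there. Spearman's rho between mismatches and fold over the 264 sites was −0.22, −0.22, −0.17 and −0.095 in the 4 libraries, in the order MCF10A replicates 1 and 2 and G12V replicates 1 and 2; the sites share their libraries, and no p is given.

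Motifs sat at the summits. The median distance from the motif centre to the summit of the strongest peak was 10.0 bp, with 144 of 264 within 10 bp and 239 within 25 bp. Measured in single libraries the median was 10.0 and 13 bp in MCF10A against 19.5 and 9 bp in G12V, where the library with the longest fragments (279 bp) and the fewest reads, G12V replicate 1, was the least precise. Only 6 sites held 2 or more non-overlapping motifs.

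Of the 24 sites without an adjacent pair, 16 had a pair of decamers separated by 1 to 13 bases, as in the PIK3C3, TMEM229A and KITLG sequences printed above. The background of such pairs was 5.21% in windows 2000 bp beside. A decamer without mismatch stood in 16 of the 24, against 4.86% of the windows beside, and 7 of the 24 had neither. PIK3C3, a lipid kinase of autophagy, is the nearest gene of the best-ranked of these sites at a distance of 1739108 bp, and its folds were 29.4 and 21.3 in MCF10A against 15.1 and 42.8 in G12V. At TMEM229A they were 36.3 and 10.3 against 20.4 and 35.0. The KITLG site lies in an intron of KITLG, the ligand of the KIT receptor, with 33 and 13.7 against 11.2 and 35.1. The groups overlap in all 3. Over all 24 sites the median folds were 14.6 and 10.2 in MCF10A against 8.32 and 25.4 in G12V, each below the medians of 20.4, 13.3, 11.4 and 26.5 at sites with 0 mismatches.

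The search also found that many core distal sites resemble each other well beyond the motif. When 60 bp centred on the motif were aligned without gaps in either direction, 93 of the 264 sites with a motif (35.2%) shared at least 80% of their bases with another member, and they formed 15 groups when linked this way. The largest group held 30 sites and the next 12, 11 and 7. Sequences of the best-ranked sites of the largest group are given so that the shared flanks can be seen; the pair of decamers is in capitals, each is read 5′ to 3′ in the direction that matches the first, and the coordinates are of hg19.
ENSG00000284188: acgggTGACTTGCCCAGACATGCCCgcaat
HS3ST4: acaggTGACTTGCCCAGACATGCCCtgcaa
NPL: acaggGGACTTGCCCAGACATGCCCgcaat
PRKX: acaggTGACTTGCCCAGACATGCAAgcaat
BBS9: acgggTGACTTGTCCAGACATGCCTgcaat

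The second group is shown the same way, because its motif differs from that of the first and the 4 sites printed lie on different chromosomes.
SUGCT: actgtGGGCATGCCCAGACAAGCCCtgggc
MAT2B: gctgtGGGCATGCCCAGACAAGTCCtgggc
RPL39L: gctgtGGGCATGCCCACACAAGCCCtgggc
MED4: gttatGGGCATGCCCAGACAAGCCCtgggc

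These lines are chr1:244898912-244898941 (plus strand), chr16:25565219-25565248 (minus), chr1:182730689-182730718 (minus), chrX:4628837-4628866 (plus) and chr7:33327620-33327649 (plus) for the first group, and chr7:40757085-40757114 (plus), chr5:163547028-163547057 (plus), chr3:186901162-186901191 (minus) and chr13:48640875-48640904 (minus) for the second. Median folds of the largest group were 22.7 and 15.8 in MCF10A against 9.91 and 28.2 in G12V, and those of the second were 22.4 and 15.2 against 14.3 and 32.7. The 30 sites of the largest group lay a median of 111704 bp from a start site and 6 of them lay in a protein-coding gene. Sites of the third group lay a median of 4725 bp away, with 9 of 11 in a gene.

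Among sites of the other classes with a motif, 22.4% of 844 partly shared distal sites, 19.6% of 837 distal sites of 1 cell type and 12.9% of 31 promoter sites of all 4 lists shared at least 80% of the 60 bp with a core distal site. For the largest group alone the shares were 3.55%, 1.43% and 0%, against 11.4% among core distal sites. The groups were built from core distal sites, so these shares were not tested, and no annotation of repeats was used here. The authors kept only reads that align to 1 place, so copies without a base of their own are not measured; 1 pair, near SPTLC1 and TCERG1L, was identical over the 60 bp.

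AP-1 motifs (TGACTCA or TGAGTCA, the same pattern on both strands) were found in 18 of 288 windows (6.25%), against 2.08% in windows 2000 bp beside. In the other classes the share was 5.60% of partly shared distal sites, 7.57% of distal sites of 1 cell type and 9.09% of promoter sites (adjusted p = 0.669 for each, Fisher's exact test), so no difference was detected. The sites of 1 cell type are a mixture: the share was 2.03% of 345 MCF10A sites (exact 95% interval 0.820 to 4.14%) and 9.44% of 1028 G12V sites (7.72 to 11.4%). The core distal share lies between these, and neither was tested against it alone. The outcome changed with the libraries used: against partly shared sites the share was higher without MCF10A replicate 1 (adjusted p = 0.0338) or 2 (adjusted p = 0.0423) and lower without G12V replicate 2 (adjusted p = 0.00876), and against sites of 1 cell type it was lower without G12V replicate 1 (adjusted p = 0.0236, Fisher's exact test). The best-ranked sites with an AP-1 motif are near RRM2B, SARAF, a regulator of store-operated calcium entry, PTPN14, a phosphatase that restrains YAP, and SPATA31D1, a spermatogenesis-associated gene, followed by SHROOM3, an actin-binding protein. The AP-1 motifs of RRM2B and SARAF lay 33 and 72 bp from the summit, those of PTPN14 and SPATA31D1 68 and 36 bp and that of SHROOM3 21 bp. Folds at SARAF were 26.1 and 16.5 in MCF10A against 26 and 37.6 in G12V. Folds at PTPN14 were 23.5 and 14.1 in MCF10A against 14.1 and 25.4 in G12V, and the groups overlap at both as deposited. After normalization G12V lay above MCF10A at SARAF (4.48 and 4.40 against 5.14 and 4.66, limma adjusted p = 0.527), and PTPN14 still overlapped.

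For the last 3 of these sites the AP-1 motif is shown in capitals with 10 bases either side, plus strand of hg19, at chr1:214613038-214613064, chr9:84636281-84636307 and chr4:77703256-77703282.
PTPN14: tatcattattTGAGTCAcacctggtaa
SPATA31D1: gacactagacTGACTCAcctctgttcc
SHROOM3: acatgttggtTGACTCAgccatttctc

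CTCF binding was measured in other libraries of the same cell types, so its peaks are independent of the rule. A peak of at least 1 of the 4 CTCF lists overlapped 10 of 288 core distal sites (3.47%), and 5 after the sites were shifted by 10 kb. The share was 1.93% of partly shared distal sites (adjusted p = 0.223), 2.84% of distal sites of 1 cell type and 4.55% of promoter sites (adjusted p = 0.669 for both, Fisher's exact test). Without MCF10A replicate 1 the share was 4.47% against 0.946% of partly shared sites (adjusted p = 0.0111). The direction turned without G12V replicate 1 (2.05% against 2.50%, adjusted p = 0.712), without G12V replicate 2 (1.72% against 5.49%, adjusted p = 0.115) and with summit windows of 100 bp in place of whole peaks (1.37% against 1.54%, adjusted p = 1.00, Fisher's exact test). Single CTCF lists overlapped 4 and 9 sites in MCF10A against 3 and 9 in G12V, and these lists held 11346, 20136, 12004 and 27678 peaks, so the 2 cell types overlap and the longer lists of each held more. With 2 libraries in each group the exact permutation test cannot go below 0.33.

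CTCF peaks of all 4 lists were found at the sites of GML, H6PD and NTPCR. At H6PD, in the host gene of miR-34a, the CTCF folds were 14.2 and 14.4 in MCF10A against 8.59 and 20.6 in G12V, with CTCF summits 705 to 774 bp from the p53 summit. At GML the CTCF folds were 7.23 and 11.2 against 6.48 and 8.21, with summits 608 to 698 bp away. In both places the CTCF and p53 peaks touch within a wide site while their summits stand apart. Near NTPCR, a nucleoside triphosphatase, the CTCF summits lay 9 to 87 bp from the p53 summit, with CTCF folds of 5.70 and 7.46 against 4.31 and 4.88. At DHX37, an RNA helicase, a CTCF peak was listed in replicate 2 of each cell type only, with folds of 5.0 and 8.80.

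By position, 179 of the 288 sites were intergenic, 103 were in introns and 6 in exons of protein-coding genes. The share inside a protein-coding gene was 37.8%, below the 46.5% of partly shared distal sites (adjusted p = 0.0238) and the 47.3% of distal sites of 1 cell type (adjusted p = 0.0114, Fisher's exact test). With lists of equal length the adjusted p was 0.795 and 0.0805, without G12V replicate 1 it was 0.338 and 0.150, without MCF10A replicate 2 the first was 0.0761, and without G12V replicate 2 it was 0.304. The median distance to the nearest start of a protein-coding gene was 29534 bp, with 79 sites within 10 kb and 78 over 100 kb away.

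**Figure D4:**
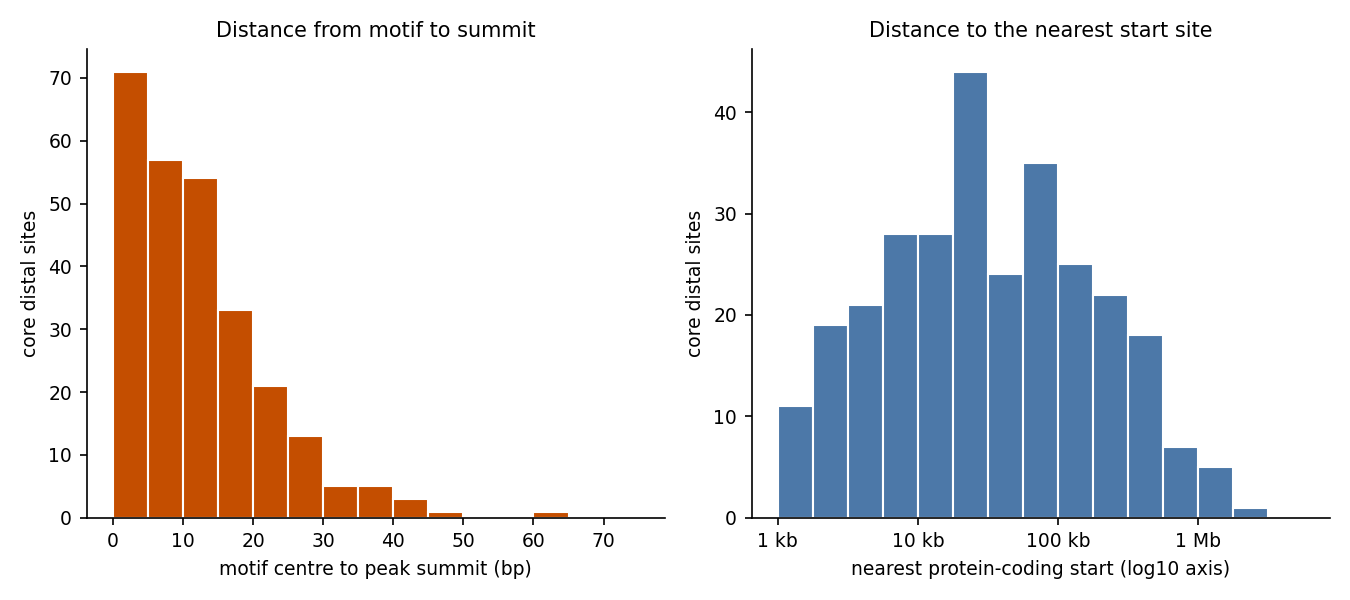
Left, number of core distal sites by distance from the motif centre to the summit of the strongest peak (bp; 264 sites with a motif, median 10.0 bp). Right, number of sites by distance to the nearest protein-coding start (log10 axis; 288 sites, median 29534 bp).

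Core distal sites seldom clustered. They had 280 different nearest genes, and 8 sites were within 10 kb of another. These are the pairs near MED4, CLEC3A, PTPRM and ZNF81, whose summits lie 5704, 4125, 5362 and 3094 bp apart. PTPRM encodes a receptor-type tyrosine phosphatase and MED4 a subunit of the Mediator complex.

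Genes that are established p53 targets were looked up in a list of 87 annotated genes, grouped by role. TP53INP1, SESN1 and SESN2 stand in more than 1 role and are counted in each in the counts by role. A core distal site lay within 100 kb of a start of 13 of the 87 genes (14.9%), against 525 of all 20136 protein-coding genes (2.61%). The list was drawn up with results of these data known, so this is a description. By role, 1 of 9 genes of p53 feedback had a site, 5 of 13 genes of cell cycle arrest, 1 of 17 of apoptosis, 1 of 10 of DNA repair, 1 of 16 of metabolism and 4 of 25 others. The share was 13.8% at 50 kb and 16.1% at 250 kb, where it was 1.41% and 5.97% of all genes. A p53 site of any class, promoter sites included, was found for 71 of the 87 genes (81.6%), against 26.8% of all protein-coding genes. In the same order of roles the counts were 6 of 9, 12 of 13, 14 of 17, 6 of 10, 13 of 16 and 23 of 25. The lower counts above therefore concern core distal sites and not all p53 binding.

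CDKN1A, the inhibitor p21 that halts the cell cycle, had a site 9199 bp from a start, at chr6:36634824-36635264, with folds of 14 and 5.68 in MCF10A against 12.7 and 36.0 in G12V. GADD45A, a stress gene of cell cycle arrest, had a site in its own intron, 1102 bp from a start, with 13 and 8.26 against 12.3 and 34.7. PLK2, a polo-like kinase, gave 28.4 and 9.56 against 12.7 and 31.5. Their places by rank sum were 180, 172 and 58, and the cell types overlap at all 3 as deposited. After normalization both G12V values lay above both MCF10A values at CDKN1A (3.56 and 2.93 against 4.25 and 4.56, difference 1.16, limma adjusted p = 0.0955) and GADD45A (3.46 and 3.47 against 4.19 and 4.42, difference 0.84, adjusted p = 0.193), and PLK2 overlapped.

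The motifs of these arrest genes are given with the pair of decamers in capitals, plus strand of hg19, at chr6:36635030-36635059, chr1:68152453-68152482 and chr5:57758096-57758125, and they have 1, 1 and 0 mismatches.
CDKN1A: acaaaAGACAAGCCCGGGCAAGGCCagcgg
GADD45A: gtacaGAACATGTCTAAGCATGCTGgggac
PLK2: gtgcaGGGCAAGTCCAGGCATGTTTctcat

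The sites near GDF15, a secreted stress cytokine, and TOB1, an antiproliferative protein, lie nearer to PGPEP1 and SPAG9. Folds near GDF15 were 16.6 and 7.49 in MCF10A against 16.4 and 29.6 in G12V, and those near TOB1 were 20.1 and 8.01 against 24 and 36.9. At TOB1 both G12V values were above both MCF10A values before and after normalization (difference 1.13, limma adjusted p = 0.0983). At GDF15 the groups overlap as deposited, and normalized they gave 3.78 and 3.30 in MCF10A below 4.52 and 4.18 in G12V (difference 0.81, adjusted p = 0.217).

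MDM2, the ubiquitin ligase that degrades p53 and the target of nutlin, had a core distal site 20449 bp from a start, in an intron of SLC35E3. Its folds were 9.47 and 8.69 in MCF10A against 8.18 and 32.3 in G12V, below the median of the set in the first 3 libraries and above it in the last, and it held no adjacent pair of decamers. BCL2L1, the apoptosis inhibitor BCL-XL, had a site in its own intron with 8.68 and 6.25 against 7.88 and 19.2, also without an adjacent pair. G12V replicate 2, the deepest library, was highest at both, and the groups overlap as deposited. After normalization both G12V values lay above both MCF10A values at MDM2 (3.06 and 3.54 against 3.63 and 4.30, limma adjusted p = 0.330) and at BCL2L1 (2.96 and 3.04 against 3.55 and 3.52, adjusted p = 0.439).

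ZMAT3, an RNA-binding protein, gave 17 and 11.9 against 12.8 and 27.8. The site closest to ULK2, an autophagy kinase, lies 20600 bp from it and is nearer to ALDH3A1, an aldehyde dehydrogenase, with 18.9 and 11.1 against 21.0 and 41.8. NOTCH1, a receptor of cell fate decisions, gave 30.5 and 26.6 in MCF10A against 7.55 and 27.3 in G12V, and held no adjacent pair of decamers. After normalization G12V lay below MCF10A at NOTCH1 (4.69 and 5.09 against 3.49 and 4.04, difference −1.13, limma adjusted p = 0.0983). G12V lay above MCF10A at ZMAT3 (3.80 and 3.97 against 4.27 and 4.09, difference 0.29, adjusted p = 0.732). The same held at the ULK2 site (3.97 and 3.89 against 4.88 and 4.82, difference 0.92, adjusted p = 0.147). RRM2B, IER5 and KITLG, described above, complete the 13, and at KITLG the normalized values overlap.

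For other genes of interest in these cells, 0 of 20 markers of basal mammary epithelium, 2 of 16 genes of the RAS and MAPK pathway and 3 of 12 AP-1 genes had a core distal site within 100 kb, where the share of all protein-coding genes was 2.61%. At so low a share a count of 0 in 20 genes carries little information. The RAS pathway genes are TGFA and BTC, both ligands of the EGF receptor. The TGFA site lies 42915 bp from a start and was the eleventh by rank sum, with folds of 41.4 and 20.8 in MCF10A against 19.5 and 66.5 in G12V. Near BTC, 92176 bp away and closer to PARM1, the folds were 48.0 and 15.4 against 23.5 and 32.7. The AP-1 genes are JUND, ATF3 and BATF3, where ATF3 and BATF3 share 1 site, in an intron of ATF3, with 14.9 and 10.4 against 6.90 and 28.4. This site lies 90927 bp from a start of BATF3. The JUND site, 83400 bp from a start, is the same site that was counted above for GDF15. The counted genes are therefore not independent sites. A p53 site of any class, promoter sites included, was found for 9 of the 20 basal markers (45.0%), 6 of the 16 RAS and MAPK genes (37.5%) and 7 of the 12 AP-1 genes (58.3%). The share of all protein-coding genes was 26.8%.

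The cell types were then compared within the 332 sites of all 4 lists. The log2 fold enrichment was quantile normalized as above, so a difference is a change of a site relative to the other sites and not in total p53 binding. Limma with Benjamini-Hochberg adjustment was fitted over all 332 sites, with 2 libraries in each group. At an adjusted p under 0.05, 4 core distal sites were higher in G12V and 9 lower. Over all 332 sites 6 (1.81%) were called higher and 9 (2.71%) lower. The core distal sites are 288 of these 332, so the counts are close by construction. Called sites outside the core distal set were promoter sites at chr19:49457915 and chr10:90750378, and they were higher in G12V (limma adjusted p = 0.0296 and 0.0493). At an unadjusted p under 0.05, 25 core distal sites were higher and 30 lower.

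The calls depend on the libraries and the normalization. Without MCF10A replicate 2, without G12V replicate 1 or without G12V replicate 2, 0 sites were called in either direction by limma, at an unadjusted p under 0.05 in 12 to 14 core distal sites higher and 22 to 28 lower, and the adjusted p of the 13 called sites was then 0.0609 to 0.328. Without MCF10A replicate 1, 5 higher and 9 lower core distal sites were called, with 11 of the 13 kept. Median centring in place of quantile normalization called 3 and 7, all among the 13. When the rank percentile in each list replaced the fold, 0 were called, with 5 and 10 at an unadjusted p under 0.05. All 13 sites kept their direction in each of these fits. They were picked for large differences in these same libraries and their groups did not overlap. A kept direction was therefore close to given in advance. The sizes moved by unequal amounts over the fits on log2 fold. The difference at RGS8 was −2.11 to −1.75 and at FER1L6 −1.62 to −1.49. Wider ranges were found at HNRNPA3 (−2.30 to −1.38), CAMK4 (−1.83 to −1.10) and COL4A1 (−1.75 to −1.07).

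RGS8, a regulator of G protein signalling, holds in an exon the site that differed most. Its normalized log2 folds were 4.66 and 5.03 in MCF10A against 2.91 and 2.88 in G12V, so both G12V values lay below both MCF10A values. The difference, G12V minus MCF10A, was −1.95 (SE 0.37, limma adjusted p = 0.00745). Near HNRNPA3, an RNA-binding protein, the values were 4.69 and 4.98 against 2.43 and 3.41 (difference −1.91, SE 0.40, limma adjusted p = 0.0107). SMOC1, a calcium-binding matrix protein, holds in an intron a site with 4.39 and 4.59 against 2.50 and 3.01 (difference −1.73, SE 0.38, limma adjusted p = 0.0113).

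LRRC7, FER1L6, BCL2A1, COL4A1 and CAMK4 mark other sites that were lower in G12V. BCL2A1 is an apoptosis inhibitor of the BCL2 family, and its site, 32175 bp upstream, gave 5.00 and 4.38 against 3.24 and 3.14 (difference −1.50, limma adjusted p = 0.0249). At LRRC7 the values were 5.37 and 5.63 against 3.99 and 3.70 (difference −1.66), and this site was the most enriched of the 9 in MCF10A. COL4A1, a collagen of basement membranes, gave 3.76 and 4.46 against 2.57 and 2.80, and CAMK4, a calmodulin-dependent kinase, 4.63 and 4.98 against 3.76 and 3.0. FER1L6 gave 5.10 and 5.14 against 3.66 and 3.46, and the remaining site of the 9 is near UBE2G2, a ubiquitin-conjugating enzyme. In all of these the groups do not overlap. With core distal sites only in the fit, the limma adjusted p was 0.0612 at BCL2A1 and 0.0924 at COL4A1, CAMK4 and UBE2G2. With median centring it was 0.0517 at COL4A1 and UBE2G2. LRRC7 and FER1L6 kept their calls in these fits.

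Higher in G12V were the sites near FAM90A27P, FHL2, SCHIP1 and CADM2. FAM90A27P had normalized log2 folds of 3.51 and 2.93 in MCF10A against 5.03 and 4.84 in G12V (difference 1.72, SE 0.38, limma adjusted p = 0.0113). FHL2, a LIM domain cofactor of transcription, holds in an intron a site with 3.03 and 2.43 against 4.65 and 3.97 (difference 1.58, SE 0.39, limma adjusted p = 0.0220), and a CTCF peak of G12V replicate 2 alone lay 310 bp from its summit. The FHL2 fold as deposited in MCF10A replicate 2 was 4.35, near the lowest of the core distal sites there (3.67). SCHIP1, in an intron of IQCJ-SCHIP1, gave 3.11 and 2.59 against 4.42 and 4.03 (difference 1.38), and it is 1 of the 5 sites that were just inside the rule through MCF10A replicate 2. With core distal sites only in the fit, the limma adjusted p at SCHIP1 was 0.0599. CADM2, a cell adhesion molecule 1024333 bp away, gave 3.59 and 3.60 against 4.83 and 4.88 (difference 1.26, limma adjusted p = 0.0493). This call held in 1 of 8 alternatives, with differences of 1.25 to 1.35 in those on log2 fold and adjusted p-values of 0.0290 to 0.940.

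All 13 called sites held an adjacent pair of decamers and 0 held an AP-1 motif. Over the 288 core distal sites these shares were 91.7% and 6.25%, so the counts do not set the called sites apart. Sequences are given for 3 sites that were higher and 3 that were lower, plus strand of hg19, at chr19:53798515-53798544, chr2:106020865-106020894, chr3:83983800-83983829, chr1:182613033-182613062, chr2:178035062-178035091 and chr15:80295680-80295709, with 0, 2, 1, 0, 0 and 0 mismatches. The first 3 were higher in G12V and the others lower, and CADM2 belongs to the largest group of similar sites, as does LRRC7, which was lower.
FAM90A27P: agctgGGACATGCCTGGGCATGTCTaggcc
FHL2: tcaggAGGCAAGTCCCTGCATGCCTtccca
CADM2: tcagaTGACTTGCCCAGACATGCCCacaat
RGS8: tgcctAGACTTGCCTGGACTTGCCCtgccc
HNRNPA3: agttcAAGCATGCCTGGGCATGTTTgtcaa
BCL2A1: tgttcGGACATGTCTGGGCAAGTCCgggca

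**Figure D5:**
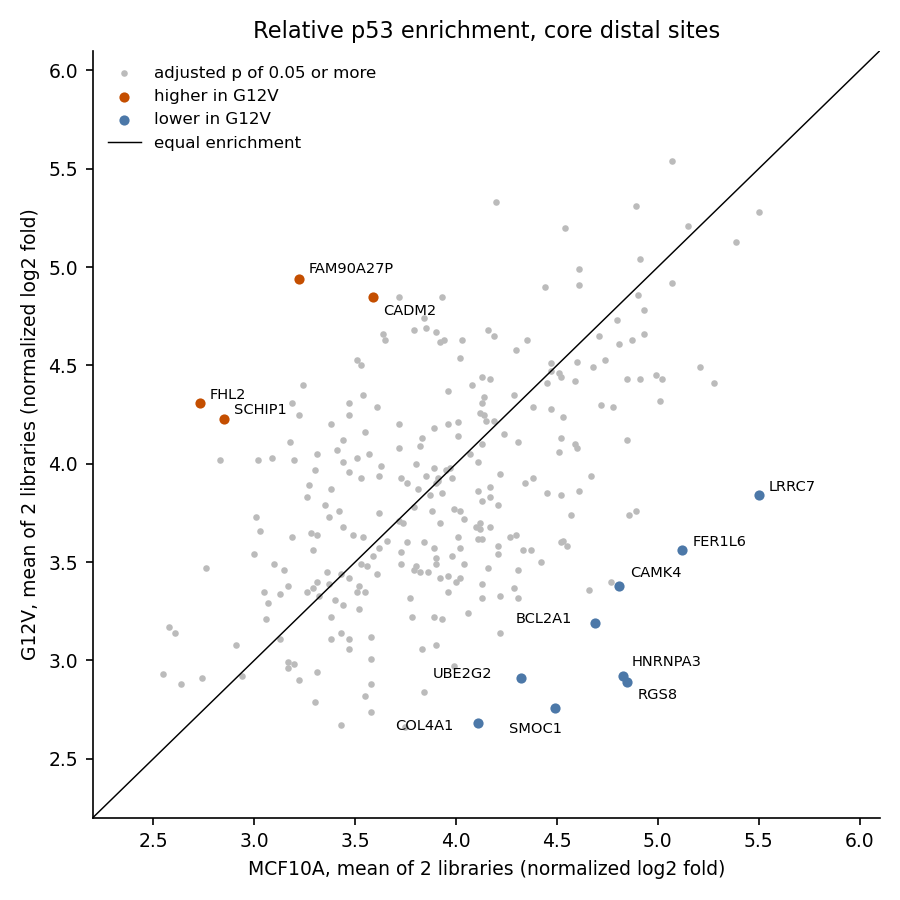
Normalized log2 fold enrichment of the 288 core distal sites, mean of 2 libraries of MCF10A (x axis) against mean of 2 libraries of G12V (y axis); the line marks equal enrichment. The 4 sites called higher in G12V lie above the line, from a difference of 1.26 (CADM2) to 1.72 (FAM90A27P), and the 9 called lower lie below it, down to −1.95 (RGS8).

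Most core distal sites differed by less. Sites without a peak in some library were left out by the rule, so large differences are under-represented here. Normalization also gave each library the same distribution, so a small median was built in. The difference had a median of −0.07 and an SD of 0.62 over the 288 sites, 12 were higher and 16 lower in G12V by over 2-fold, and the SD between replicates was 0.41 in each cell type. Both G12V libraries were above both MCF10A libraries at 65 sites and below them at 77. Over all 332 sites, which include these 288, the counts were 87 (26.2%) and 79 (23.8%). Pearson's r of log2 fold over the 288 sites was 0.60 and 0.59 within MCF10A and within G12V, and 0.26 to 0.43 across cell types; no p is given, as the sites share their libraries.

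The difference was also set beside features of the sites, without a test. Its median was −0.01 at the 18 sites with an AP-1 motif and −0.08 at the 270 without. At the 10 sites with a CTCF peak it was 0.64 and at the other 278 −0.08, with 7 of the 10 above 0. By mismatches it was −0.03 with 0, −0.23 with 1, −0.07 with 2 and 0.13 with 3. Sites within 10 kb of a start had a median of 0.02 and those over 100 kb away −0.17, and the largest group of similar sites had −0.21, with 7 of 30 above 0. The quartiles over all 288 sites were −0.45 and 0.31, with 124 sites above 0. Apart from the CTCF sites these medians lie inside that range. The quartiles are of single sites, so they cannot show whether a group of sites differs. GC content of the 150 bp and the difference had a Spearman's rho of 0.088.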

How the data were processed

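ChIP-seq peaks of p53 and CTCF came from MCF10A and G12V cells, 2 libraries each. The authors aligned reads with Bowtie to hg19, kept uniquely aligned reads and called peaks with MACS2 against the input. The deposited lists, 1 per library, give a fold enrichment (a ratio of pileup to local background), −log10 of the p-value and of the q-value, and a score that is 10 times the latter. Versions of these tools for ChIP-seq are not given in the sources used here. The p53 peaks of G12V replicate 1 carry names that end in 2.

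Members, gene lists and comparisons were chosen with earlier results of these data known. Peaks were merged, classed and placed with GENCODE release 44 on GRCh37. Summit reads and depth were solved from fold and p-value for a mappable genome of 2.7 Gb; they and the exact intervals cover counting error only. Shares were compared with Fisher's exact test (Benjamini-Hochberg over 11 tests) and relative enrichment with limma 3.58.1. The solving of summit reads, the merging of sites, the p53 motif search and the limma fit were tested on simulated data. In the limma test, quantile normalization recovered fewer changed sites than none. Sites were named by the nearest protein-coding start: the 10 with the smallest rank sum, up to 8 called in each direction, the 3 best-ranked without a p53 motif, with an AP-1 motif and with a CTCF peak, those around the rule's boundary and those within 100 kb of a listed target. NTPCR, UBE2G2, the groups of similar sequence and the values by feature were chosen after seeing the data. Some named sites are not reported here. Alternatives were other thresholds, merging, promoters, windows, normalizations and libraries. A test of repeats was not run because the genome sequence marks none.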

Additional observations from a re-analysis of the deposited data

How the results depend on the processing

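The count of 288 core distal sites became 174 with lists of equal length and 291 to 683 when 1 library was left out, with 683 without G12V replicate 1; the other settings gave 238 to 306. The differences in share below are core distal minus the other class, in percentage points. With lists of equal length, the p53 motif difference was 2.49 against partly shared and 10.4 against promoter sites, and the difference inside a gene −3.01 and −11.1 against partly shared sites and sites of 1 cell type; fewer sites were tested. Sites inside a gene gave −7.01 against partly shared sites with 1 start per gene, chosen after seeing the data. The CTCF difference was −0.175 and −1.60 with summit windows (partly shared, 1 cell type) and −0.196 and 1.04 with a peak in all 4 CTCF lists (1 cell type, promoter), and the AP-1 difference −1.04 with a 300 bp window (partly shared). The cause of these changes was not tested.

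Leaving out 1 library moved the AP-1 difference from −11.0 to 3.57 (partly shared), −3.06 to 0.840 (1 cell type) and −3.20 to 0.620 (promoter). It moved the CTCF difference from −3.78 to 3.52, −0.799 to 1.47 and −3.16 to 0.120, and that inside a gene from −9.35 to −3.29 and −9.0 to −4.14. The p53 motif difference stayed past the threshold, at 7.69 to 10.2, 11.8 to 28.6 and 12.4 to 23.3.

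For relative enrichment, limma called 0 core distal sites higher and 0 lower in G12V with rank percentiles, and 2 and 5 with core distal sites only in the fit. Leaving out 1 library gave 0 to 5 higher and 0 to 9 lower; the lone library of a cell type is then assumed to vary like the other pair. With a replicate block 5 and 11 were called, but same-numbered libraries are not known to be paired (r of their deviations 0.06 over 332 sites). Depth limits the weakest sites, which rest on 8 reads at the summit in MCF10A replicate 2 and 10 in G12V replicate 1.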
